A study of Mus musculus with 18 samples.

Results

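Transcripts of 8 genes that encode eosinophil granule proteins and eosinophil-associated ribonucleases were followed in 18 RNA sequencing libraries of mouse peritoneal eosinophils. The members were chosen by symbol, as the rows of a table of 54446 genes whose Ensembl identifiers map to Prg2, Prg3, Epx, Ear1, Ear2, Ear6, Ear10 and Rnase2a. All 8 were found, 3 of them granule proteins and 5 ribonucleases. Of these transcripts, Ear2, Ear6 and Rnase2a rose with IL-4, Ear6 rose with E. coli and fell with IFN-γ, Rnase2a rose with IFN-γ, and Ear2 fell with IFN-γ + E. coli. This fall of Ear2 rests on few reads, and Ear2 entered that test only through its high ACs values. No granule protein transcript that was tested passed the test against ACs. Prg2 was tested in both experiments, and Prg3 and Epx, for which only a few reads were counted, in the IL-4 experiment alone.

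Eosinophil granules store cationic proteins that damage parasites, microbes and host tissue when they are released. Major basic protein (encoded by Prg2) forms the granule core, Prg3 encodes its paralog, and eosinophil peroxidase (Epx) is a heme enzyme of the granule matrix that makes hypobromous acid from bromide and peroxide. These proteins are made mainly while eosinophils mature in the bone marrow and are then kept in store. The eosinophil-associated ribonucleases belong to the pancreatic ribonuclease (RNase A) superfamily, are the rodent relatives of human eosinophil-derived neurotoxin and eosinophil cationic protein, and have multiplied in the mouse by gene duplication. Some of them are also made by macrophages.

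Eosinophils came from the peritoneal cavity of C57BL/6 Il5Tg mice (line NJ.1638), which carry an Il5 transgene that is expressed from a T cell promoter and have abundant eosinophils. Co-culture lasted 18 h, with 5 dexamethasone-killed wild-type thymocytes, the apoptotic cells (ACs), for each eosinophil. Anti-Siglec-F beads then recovered the eosinophils for RNA extraction. In the Type 1 experiment the groups were ACs, E. coli + ACs, IFN-γ + ACs and IFN-γ + E. coli + ACs. In the IL-4 experiment they were ACs and IL-4 + ACs. The study describes the combined Type 1 stimulus as IFN-γ followed by E. coli. Each group had 3 libraries, every group held ACs, and each stimulus was compared with the ACs of its own experiment. The age and sex of the eosinophil donors and the doses of the stimuli are not given in the sources used here. The study describes its samples as biological replicates, and the p-values measure the spread between these libraries.

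The libraries held 779421 to 7782072 reads on genes, with a median of 4461120, and replicate 3 of both groups of the IL-4 experiment was the shallowest. In those 2 libraries 1 read stands for a normalized count of 5.14 with IL-4 + ACs and 5.36 with ACs, so low values there are coarse. All 6 eosinophil markers listed (Siglecf, Ccr3, Il5ra, Alox15, Cebpe and Gata1) were present, with a summed normalized count of 10494 to 20004 per library. All 12 macrophage markers listed, among them Lyz2, C1qc and Adgre1, were also present and summed to 10636 to 41246. None of the markers of either list was at 0 throughout. In bulk RNA, fewer cells of a type and less RNA per cell cannot be told apart.

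The 5 ribonuclease genes lie on chromosome 14 of GRCm38. Ear1 (ENSMUSG00000072601.4) spans 43818765 to 43875517 on the minus strand, and Ear10 lies at 43922720 to 43923559 on the minus strand and Ear2 at 44102654 to 44103534 on the plus strand. Further along the chromosome, Rnase2a (ENSMUSG00000047222.7) lies at 51255262 to 51256112 on the minus strand and Ear6 (ENSMUSG00000062148.6) at 51853699 to 51854643 on the plus strand. Prg2 (ENSMUSG00000027073.5) and Prg3 are neighbours on the plus strand of chromosome 2, at 84980461 to 84983632 and 84988215 to 84993886. Epx lies on the minus strand of chromosome 11, at 87864000 to 87875536.

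The promoters of the ribonuclease genes are near copies of each other, and the following stretches of 100 bases show how alike they are. They are RefSeq sequences of build GRCm38.p6, read 5′ to 3′ on the strand of the gene, each with 80 bases before a CCAAT box, and the box is in capitals. The windows are chr14:43819692-43819791 (minus) for Ear1, chr14:44102504-44102603 (plus) for Ear2, chr14:43923651-43923750 (minus) for Ear10, chr14:51853596-51853695 (plus) for Ear6 and chr14:51256207-51256306 (minus) for Rnase2a.
Ear1: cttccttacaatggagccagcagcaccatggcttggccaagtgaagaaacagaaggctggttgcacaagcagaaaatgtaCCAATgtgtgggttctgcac
Ear2: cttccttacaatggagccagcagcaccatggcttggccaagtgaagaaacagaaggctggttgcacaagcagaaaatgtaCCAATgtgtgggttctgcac
Ear10: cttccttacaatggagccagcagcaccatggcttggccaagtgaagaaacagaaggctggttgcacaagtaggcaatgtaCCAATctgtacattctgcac
Ear6: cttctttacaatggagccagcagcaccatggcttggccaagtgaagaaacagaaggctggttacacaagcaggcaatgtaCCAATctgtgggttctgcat
Rnase2a: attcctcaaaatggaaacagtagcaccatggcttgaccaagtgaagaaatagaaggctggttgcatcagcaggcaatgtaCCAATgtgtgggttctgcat

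Ear1 and Ear2 were identical at 100 of these 100 bases. Ear6 matched both at 94 bases, Ear10 at 93 and Rnase2a at 87. The box stands 72 bases before the RefSeq start in Ear1, 70 in Ear2, 74 in Ear10, 92 in Ear6 and 114 in Rnase2a. A window of 300 bases, with 250 before and 50 after the start, was given for 7 of the 8 members, all but Prg2. CCAAT, on either strand, was found in 37.4% of 32851 RefSeq promoters of that length and in 5 of these 7. Searched in the same way, the STAT6-type palindrome (TTC and GAA with 4 bases between them, held by 6.95% of promoters) was found in Epx and in none of the ribonuclease windows. TTCNNNGAA (8.3%), AGATAA (11.2%) and TTGCNNCAA (2.08%) were found in none of the 7, and TATAAA (13.6%) in Epx alone. GGAA, which 96.0% of promoters hold and which overlaps both palindromes where they end in GGAA, was found in all 7.

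The 3′ ends of the ribonuclease transcripts, from which CEL-Seq2 makes its reads, are alike too, and only uniquely mapped reads were counted. The last 300 bases of Ear1 and Ear2 were 98.7% identical. Of the windows of 50 bases in that end, 60.2% to 72.5% (according to the transcript) were shared by Ear1 with another annotated gene, 38.2% by Ear2 and 34.7% to 59.4% by Ear10. The share was 3.59% for Ear6 and 0.0% for Rnase2a, Prg2, Prg3 and Epx. The counts of Ear1, Ear2 and Ear10 are therefore uncertain, and the Ear1 locus also holds the annotated pseudogenes Ear-ps9 and Ear-ps12.

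Ear6 took most of the reads of the 8 genes. It made up between 55.3% (IFN-γ + ACs) and 89.7% (E. coli + ACs, and ACs of the IL-4 experiment) of their summed normalized counts, as group means. The 8 transcripts together were 0.0235% ± 0.00078 (SD, n = 3) of a library with ACs and 0.0533% ± 0.00573 after E. coli. After IFN-γ the share was 0.0145% ± 0.000212, and after both Type 1 stimuli 0.0236% ± 0.00297. In the IL-4 experiment the share was 0.123% ± 0.0263 (SD, n = 3) with ACs and 0.244% ± 0.00931 with IL-4 + ACs. Within each experiment the order of the groups by this share was that of Ear6.

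Genes had to average 10 or more normalized counts over the libraries compared. That left 7 of the 8 members to test in the IL-4 experiment (all but Ear10) and 4 in the Type 1 experiment (Prg2, Ear2, Ear6 and Rnase2a). Calls needed a Benjamini-Hochberg adjusted p under 0.05 over all genes tested and a 1.5-fold difference or more in a limma fit on log2(normalized count + 1). Fold changes below are on that scale unless given as a ratio of means.

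**Figure D1:**
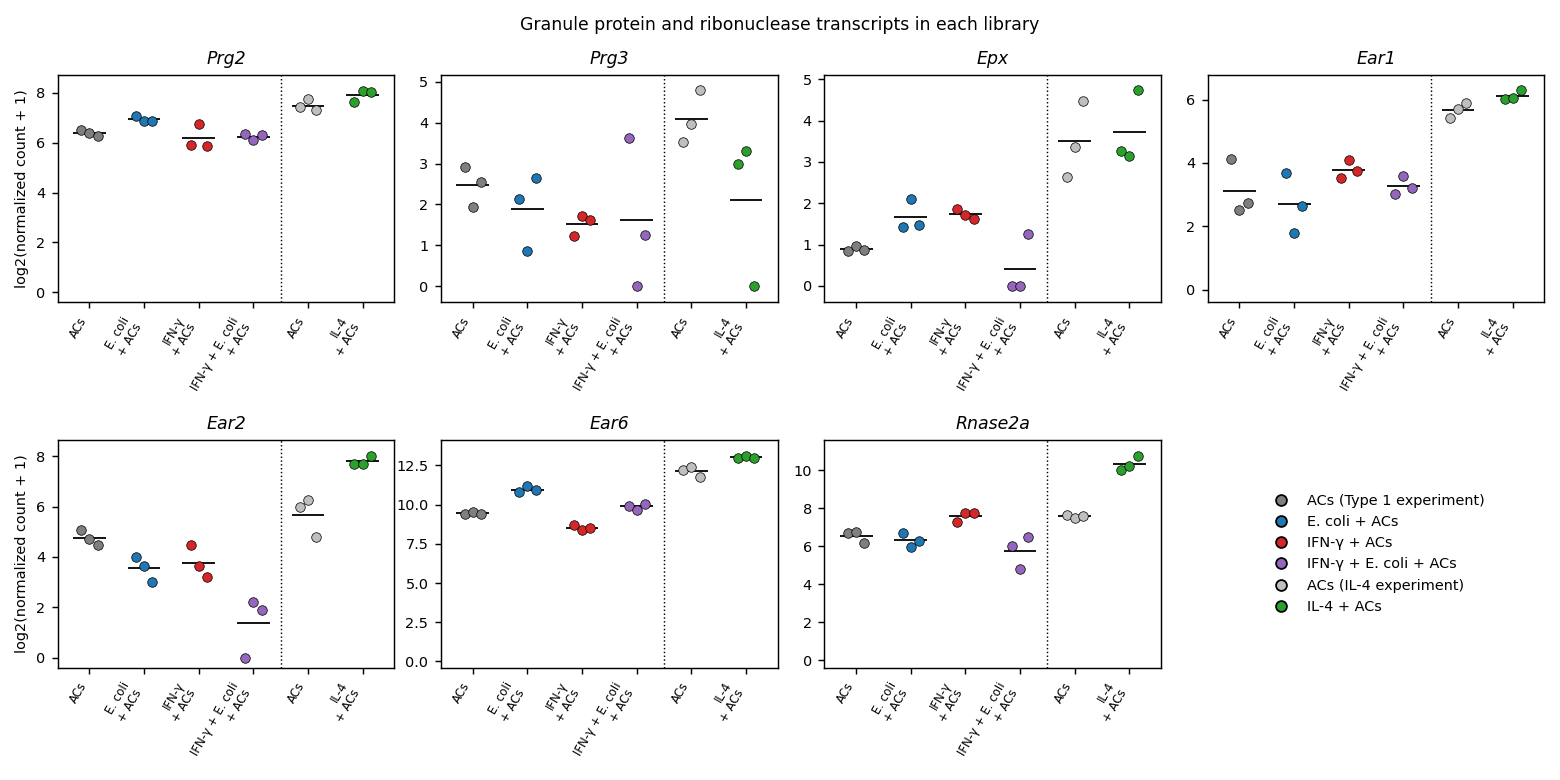
Each panel shows 1 gene, with log2(normalized count + 1) on the vertical axis, 1 point per library, a bar at the mean of 3 libraries, and a dotted line between the Type 1 and the IL-4 experiment. Ear6 and Rnase2a are highest with IL-4 + ACs, at 8092 to 8689 and 1047 to 1712 normalized counts, whereas Epx and Prg3 stay below 30 in every library.

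Among the granule proteins, Prg2 was the one with reads enough to follow in every library. Its normalized counts in the Type 1 experiment were 90.3, 81.7 and 75.8 with ACs and 132, 117 and 117 after E. coli. After IFN-γ they were 59.4, 107 and 57.5, and after both stimuli 79.8, 67.2 and 77.3. All E. coli + ACs libraries lay above all ACs libraries, when 38.3% of genes tested did not overlap in that comparison, and the other groups overlapped with ACs.

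None of the 3 changes in Prg2 passed the test by limma. The log2 fold change was 0.56 ± 0.22 (SE, adjusted p = 0.111) with E. coli, -0.20 ± 0.22 (SE, adjusted p = 0.549) with IFN-γ and -0.14 ± 0.22 (SE, adjusted p = 0.646) with both, with 95% intervals of 0.09 to 1.03, -0.67 to 0.27 and -0.61 to 0.33. Before adjustment 1 of these 3, that with E. coli, was under 0.05, and neither edgeR nor DESeq2 called any. Between the stimuli, Prg2 was lower with IFN-γ + E. coli + ACs than with E. coli + ACs, by a log2 fold change of -0.70 ± 0.22 (SE, limma, adjusted p = 0.0279), without overlap. In that comparison 9.57% of genes were called lower, 9.79% higher, and 39.3% did not overlap. That call was lost without E. coli + ACs replicate 1, 2 or 3 (adjusted p = 0.0981, 0.0587 and 0.0634) and without IFN-γ + E. coli + ACs replicate 2 (0.0665).

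In the IL-4 experiment Prg2 stood at 169.9, 214 and 155 with ACs and at 197, 270.3 and 262 with IL-4 + ACs. The groups overlapped, and the log2 fold change of 0.43 ± 0.20 (SE, limma) did not pass the test (adjusted p = 0.528, 95% interval -0.01 to 0.87, not called by edgeR or DESeq2 either).

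Prg3, the paralog beside Prg2, gave 108 reads in the 18 libraries. Its normalized counts were 10.5, 14.8 and 26.8 with ACs and 6.95, 8.96 and 0 with IL-4 + ACs, so all IL-4 libraries lay below all ACs libraries, in a comparison in which 17.3% of all genes tested did not overlap. The log2 fold change of -2.0 had a 95% interval from -4.25 to 0.25 and did not pass the test (limma, adjusted p = 0.564). Without IL-4 + ACs replicate 3, a shallow library with 0 reads of Prg3, it was -0.95 (adjusted p = 0.658). No Type 1 library exceeded 11.4, and Prg3 was not tested there.

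Epx, the defining enzyme of the eosinophil granule, gave 75 reads in all. In the IL-4 experiment it stood at 5.26, 9.34 and 21.4 with ACs and at 8.69, 7.90 and 25.7 with IL-4 + ACs. The groups overlapped, with a log2 fold change of 0.22 (limma, adjusted p = 0.942, 95% interval -1.41 to 1.85). Over the 12 Type 1 libraries 17 reads were counted, with none in 2 of the 3 libraries that had both stimuli and at most 4 in any library. At that depth no difference between its groups was detectable. Epx was thus near the limit of detection in libraries that each held at least 1514 normalized counts of Siglecf. By limma, none of the 3 granule genes had an unadjusted p under 0.05 with IL-4.

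Ear6 was the most abundant of the ribonuclease transcripts. Its normalized counts in the Type 1 experiment were 689.6, 734 and 685 with ACs and 1776, 2284 and 1945 after E. coli. After IFN-γ they were 413, 336 and 357, and after both stimuli 972, 823 and 1057. The 4 groups did not overlap with each other, when 42.9% of genes did not overlap between IFN-γ + ACs and ACs, 48.8% between both stimuli and ACs, and 29.6% between both stimuli and IFN-γ + ACs. That share was 38.3% between E. coli + ACs and ACs and 39.3% between both stimuli and E. coli + ACs.

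The order was therefore E. coli + ACs, IFN-γ + E. coli + ACs, ACs and IFN-γ + ACs. Ear6 rose with E. coli by a log2 fold change of 1.5 ± 0.13 (SE, limma, adjusted p = 1.6e-07), a ratio of means of 2.85, and was the 1 member of 4 tested that was called, when 5.05% of all genes tested were called higher and 5.25% lower. It fell with IFN-γ by a log2 fold change of -0.93 ± 0.13 (SE, limma, adjusted p = 1.8e-05), a ratio of 0.524, when 9.96% of genes were called lower. With both stimuli the log2 fold change was 0.43 ± 0.13 (SE, limma, adjusted p = 0.0127), which is under 1.5-fold and was not called, when 14.7% of genes were called higher.

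Ear6 was lower with both stimuli than with E. coli + ACs, by a log2 fold change of -1.07 ± 0.13 (SE, limma, adjusted p = 5.7e-06). Compared with IFN-γ + ACs, the addition of E. coli raised it by 1.36 ± 0.13 (SE, limma, adjusted p = 8.2e-07), when 5.96% of genes were called higher. The effect of E. coli with IFN-γ differed from that without it by -0.14 ± 0.18 on the log2 scale (SE, limma, adjusted p = 0.716, 95% interval -0.52 to 0.24), so a departure from additive log2 effects was not detectable.

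With IFN-γ + ACs, where Ear6 was lowest, the summed eosinophil markers were also lowest, at 10494 to 11985 against 16851 to 18363 with ACs, and the macrophage markers were highest, at 31528 to 41246 against 18934 to 24243. With E. coli + ACs the eosinophil markers stood at 17533 to 18388, overlapping with ACs, and the macrophage markers at 10636 to 13138. The part of either in the Ear6 values was not tested.

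With IL-4, Ear6 stood at 8092, 8689 and 8203, against 4667, 5441 and 3437 with ACs. All IL-4 + ACs libraries lay above all ACs libraries, when 17.3% of genes tested did not overlap in that comparison. The ratio of means was 1.84 and the log2 fold change 0.91 ± 0.16 (SE, limma, adjusted p = 0.0298). Together with Ear2 and Rnase2a, Ear6 made 3 of the 7 members tested that were called higher with IL-4, when 0.74% of all 10669 genes tested were called higher and 0.347% lower. The Ear6 call was lost without IL-4 + ACs replicate 1, 2 or 3 (limma, adjusted p = 0.0963, 0.0987 and 0.0975) and without ACs replicate 1 (0.0916). It was also lost with replicate number as a block. Without both shallow libraries its log2 fold change was 0.73 (limma, adjusted p = 0.00139). That alternative was chosen after the data were seen, and in it 656 genes were called, against 116 in the main fit.

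**Figure D2:**
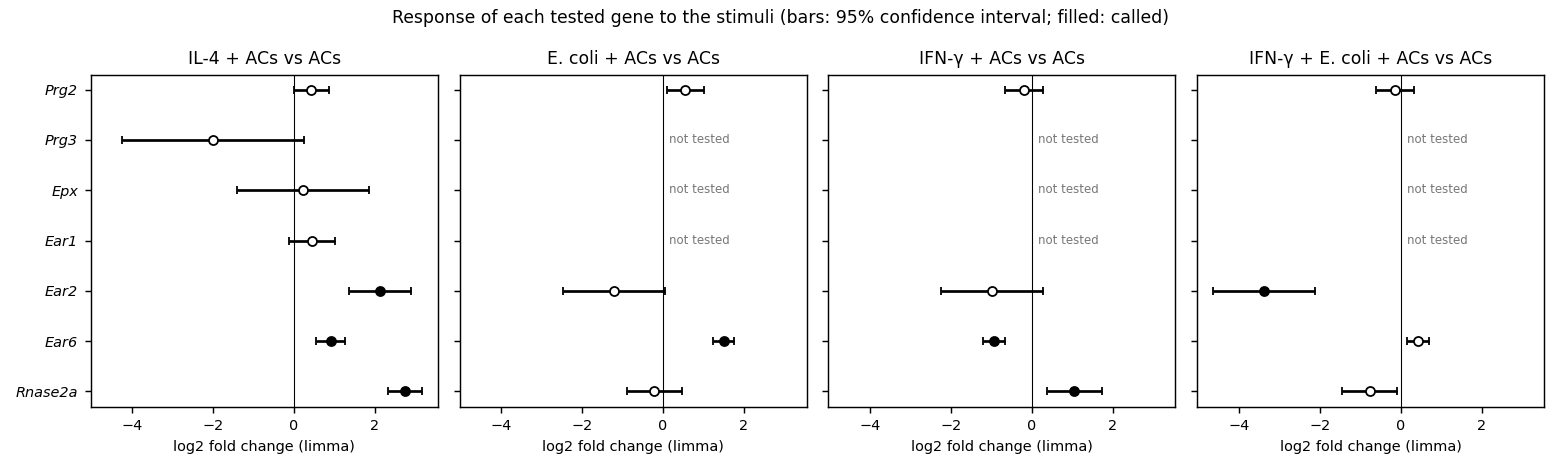
Points are limma log2 fold changes against the ACs of the same experiment on the horizontal axis, bars are 95% confidence intervals, and filled points were called (adjusted p under 0.05 and at least 1.5-fold). With IL-4 the 3 called genes are all ribonucleases and all higher, whereas in the Type 1 comparisons Ear6, Rnase2a and Ear2 are called in different comparisons and directions.

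Rnase2a, a relative of the gene for human eosinophil-derived neurotoxin, gave the largest response to IL-4 among the members. It stood at 199, 181 and 193 with ACs and at 1047, 1185 and 1712 with IL-4 + ACs. The groups were far apart, with a ratio of means of 6.88 and a log2 fold change of 2.75 ± 0.19 (SE, limma, adjusted p = 0.000203). This call was kept under all 16 alternative settings, with log2 fold changes of 2.54 to 2.89. The summed macrophage markers overlapped between IL-4 + ACs (22416 to 37522) and ACs (28013 to 41181), and Marco (lower, by a log2 fold change of -2.58) was the 1 of 12 called by limma. With edgeR 1 of them was called higher and 1 lower, and with DESeq2 1 and 2.

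Among the Type 1 libraries Rnase2a stood at 101, 108 and 71.0 with ACs and at 104, 62.1 and 76.5 after E. coli, which overlapped. After IFN-γ the values were 156, 214 and 211, all above those with ACs, when 42.9% of genes tested did not overlap. After both stimuli they were 62.7, 26.9 and 89.7, all below those with IFN-γ alone, when 29.6% of genes tested did not overlap.

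Rnase2a rose with IFN-γ by a log2 fold change of 1.06 ± 0.32 (SE, limma, adjusted p = 0.0204), a ratio of means of 2.08, when 11.4% of genes were called higher. This call was lost without ACs replicate 3 (adjusted p = 0.0999) and without IFN-γ + ACs replicate 2 or 3 (0.0683 and 0.0617). With E. coli alone the log2 fold change was -0.21 ± 0.32 (SE, limma, adjusted p = 0.756), and with both stimuli -0.77 ± 0.32 (SE, adjusted p = 0.0672). Without IFN-γ + E. coli + ACs replicate 3 the last passed the test (log2 fold change -1.14, adjusted p = 0.00769).

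In the presence of IFN-γ, E. coli lowered Rnase2a by a log2 fold change of -1.83 ± 0.32 (SE, limma, adjusted p = 0.000539), when 8.61% of genes were called lower. The effect of E. coli with IFN-γ differed from that without it by -1.61 ± 0.46 (SE, limma, adjusted p = 0.0368), which made Rnase2a the 1 member of 4 tested that was called for the interaction, against 4.28% of genes called lower and 3.16% higher. The call for the interaction was lost in 8 of 21 alternatives, with adjusted p from 0.00573 to 0.112 over all of them.

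Macrophage marker transcripts were highest with IFN-γ + ACs, as Rnase2a was. Their sum was 31528 to 41246 with IFN-γ + ACs, 18934 to 24243 with ACs, 12909 to 14007 after both stimuli and 10636 to 13138 after E. coli. The last 2 ranges overlapped and lay below ACs. The mean of Rnase2a was 93.2 with ACs, 80.8 after E. coli and 59.8 after both, and the libraries of these groups overlapped. Of the 12 markers, limma called 0 higher and 5 lower with E. coli, 5 higher and 0 lower with IFN-γ, and 3 higher and 6 lower after both stimuli. Their part in the Rnase2a values was not tested.

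**Figure D3:**
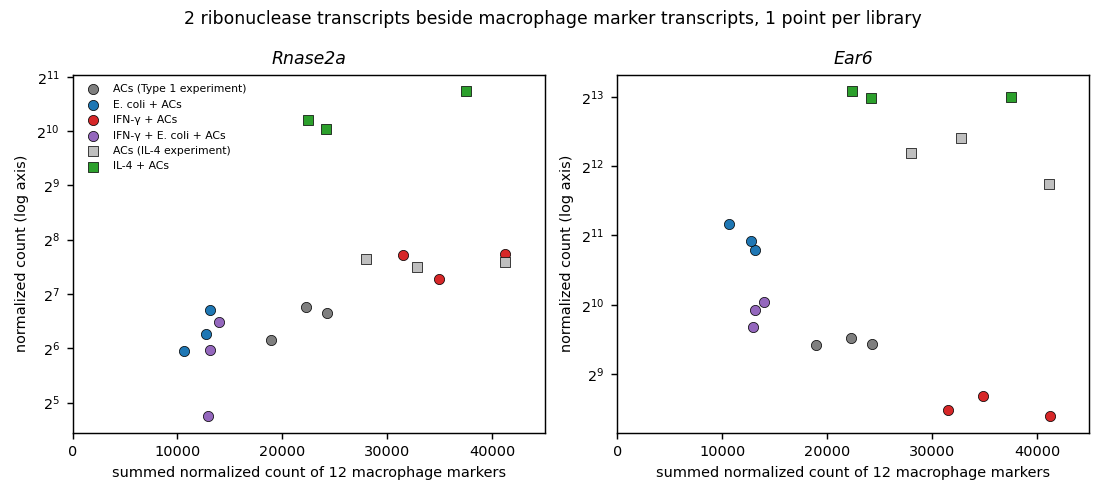
Each point is 1 library, with the summed normalized count of 12 macrophage markers on the horizontal axis and the normalized count of Rnase2a (left) or Ear6 (right) on a log2 vertical axis. In the Type 1 experiment the libraries with IFN-γ + ACs have the highest marker sums, the highest Rnase2a and the lowest Ear6. In the IL-4 experiment the IL-4 + ACs libraries have the highest Rnase2a, and their marker sums overlap with those of ACs.

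Ear2 was the third ribonuclease that rose with IL-4. It stood at 62.4, 74.7 and 26.8 with ACs and at 205, 208 and 257 with IL-4 + ACs, and the lowest ACs value rests on 5 reads of a shallow library. The groups did not overlap, when 17.3% of genes tested did not. The ratio of means was 4.08, and the log2 fold change was 2.12 ± 0.34 (SE, limma, adjusted p = 0.0175). The call was lost without IL-4 + ACs replicate 1 (limma, adjusted p = 0.0588) or replicate 3 (0.0926), and with replicate number as a block. Without both shallow libraries the log2 fold change was 1.58 (limma, adjusted p = 0.000136). This alternative was chosen after the data were seen and called 656 genes, against 116 in the main fit.

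Type 1 values of Ear2 were 32.5, 25.3 and 21.2 with ACs, 15.1, 11.4 and 7.04 after E. coli, and 21.1, 11.5 and 8.21 after IFN-γ. After both stimuli they were 0, 3.66 and 2.76, which are 5 reads against 93 with ACs. Each stimulated group lay below ACs, for IFN-γ by less than the value of 1 read (highest 21.1 against lowest 21.2). Of all genes tested, 38.3% did not overlap with ACs after E. coli, 42.9% after IFN-γ and 48.8% after both stimuli. The group with both stimuli lay below the other 3. Between both stimuli and E. coli alone 39.3% of genes did not overlap, and between both stimuli and IFN-γ alone 29.6%.

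Ear2 passed the filter of 10 in the Type 1 experiment at a mean of 13.3, of which ACs (mean 26.4) held the largest part. Its means were 11.2 after E. coli, 13.6 after IFN-γ and 2.14 after both, so Ear2 passed only through ACs, the group in which it was highest. Ear2 fell with IFN-γ + E. coli by a log2 fold change of -3.38 ± 0.60 (SE, limma, adjusted p = 0.000194) and was the 1 member of 4 tested that was called lower, when 17.2% of genes were. At so few reads the fitted value depends on the pseudocount, and it ran from -3.80 to -2.16 over 14 alternatives, all of which kept the call. They do not include the filter at a mean of at least 50, under which Ear2 was not tested. The changes with E. coli (-1.20 ± 0.60, SE, adjusted p = 0.219) and with IFN-γ (-0.98 ± 0.60, SE, adjusted p = 0.248) did not pass the test by limma. With both stimuli Ear2 was lower than with E. coli + ACs (log2 fold change -2.17, adjusted p = 0.0127) and lower than with IFN-γ + ACs (-2.39, adjusted p = 0.00817), also by limma. The former call was lost without E. coli + ACs replicate 1 (adjusted p = 0.0625) or IFN-γ + E. coli + ACs replicate 1 (0.0534).

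In all, Prg2, Ear2 and Ear6, 3 of 4 tested, were lower with both stimuli than with E. coli + ACs, when 9.57% of genes were called lower. Of these, Prg2 lost its call in 4 and Ear2 in 2 of the alternatives named above. The addition of E. coli to IFN-γ + ACs lowered Ear2 and Rnase2a and raised Ear6.

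**Figure D4:**
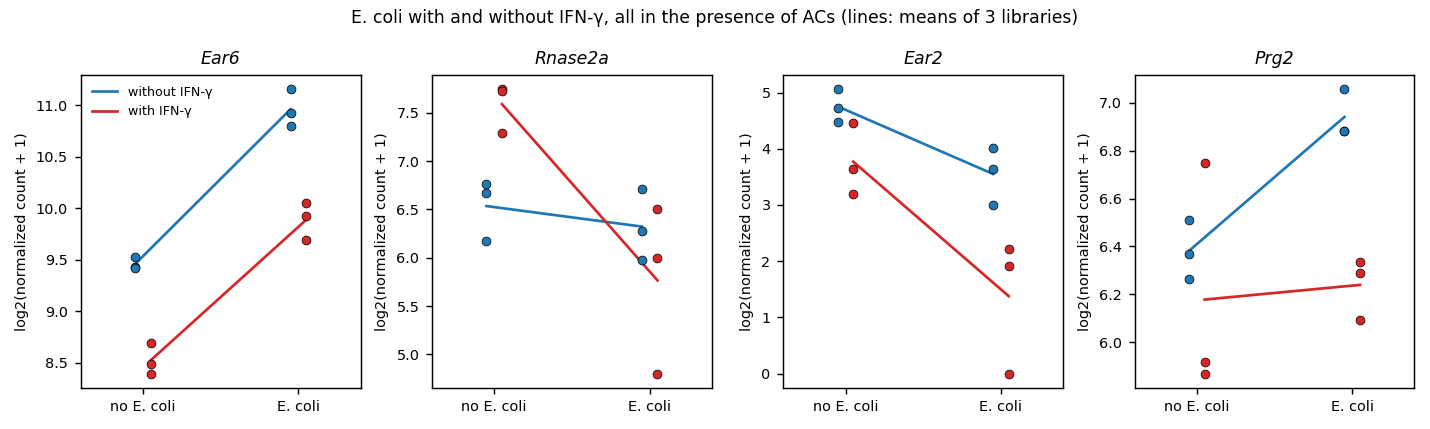
The 4 panels show log2(normalized count + 1) of Ear6, Rnase2a, Ear2 and Prg2 without and with E. coli, in blue without and in red with IFN-γ, with 1 point per library and lines through the means of 3 libraries. The lines of Ear6 run nearly parallel, those of Rnase2a cross, and Ear2 is lowest with both stimuli.

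Ear1, whose printed promoter stretch equals that of Ear2, stood at 42.1, 50.6 and 59.0 with ACs and at 64.3, 64.8 and 77.1 with IL-4 + ACs. The groups did not overlap, when 17.3% of genes tested did not. The log2 fold change of 0.44 ± 0.25 (SE, limma, adjusted p = 0.615, 95% interval -0.12 to 1.01) did not pass the test. In the other experiment Ear1 ranged from 2.45 to 16.3, all 4 groups overlapped, and it was not tested.

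Because reads of Ear1, Ear2 and Ear10 can be split or lost among near-identical copies, their sum was also taken. It was 105, 125 and 85.8 with ACs and 269, 272 and 334 with IL-4 + ACs, so these groups did not overlap either. Among the Type 1 libraries the sum was 26.9 to 48.8 with ACs, 12.3 to 26.8 after E. coli, 20.5 to 31.7 after IFN-γ and 7.13 to 14.7 after both. In the sum, ACs did not overlap with both stimuli and overlapped with IFN-γ + ACs. E. coli + ACs lay below ACs by less than the value of 1 read (highest 26.79 against lowest 26.91). Of all genes tested, 17.3% did not overlap between IL-4 + ACs and ACs, 38.3% between E. coli + ACs and ACs, and 48.8% between both stimuli and ACs. Ear10 itself gave 1 read in 1 library, IL-4 + ACs replicate 1, and none in the other 17.

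The response to IL-4 and the response to IFN-γ + E. coli, each against the ACs of its own experiment, were also compared in 1 fit over all libraries. Each response comes from a different experiment, so stimulus and experiment cannot be told apart in this difference. It was 5.50 ± 0.73 on the log2 scale for Ear2 (SE, limma, adjusted p = 1.2e-05) and 3.52 ± 0.44 for Rnase2a (SE, adjusted p = 4.8e-06), and both calls were kept in all 20 alternatives. Over these the Ear2 difference ran from 4.19 to 5.92, and its Type 1 part rests on 5 reads after both stimuli. For Ear6 the difference was 0.48 ± 0.20 (SE, limma, adjusted p = 0.101, 95% interval 0.06 to 0.90) and for Prg2 0.57 ± 0.31 (SE, adjusted p = 0.198). For Ear1 it was 0.29 ± 0.68 (SE, adjusted p = 0.798). Ear1 was below the filter in the Type 1 experiment (mean 9.285) and entered this fit, at a mean of 26.1, only through the IL-4 experiment (mean 59.7). Thus 2 of 5 members tested were called higher, when 9.67% of genes were called higher and 10.8% lower. The Ear6 difference passed the test without ACs replicate 2 of the IL-4 experiment (0.63, adjusted p = 0.03) and with a common upper quartile (0.61, adjusted p = 0.0346).

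The ACs libraries of the IL-4 experiment held more of most of these transcripts than those of the Type 1 experiment. The ratio of means was 6.42 for Ear6, 5.69 for Ear1, 3.67 for Prg3, 2.18 for Prg2 and 2.05 for Rnase2a, each without overlap, and 2.07 for Ear2, with overlap. Of 10592 genes with a mean of at least 10 in these libraries, 22.6% lay wholly above their Type 1 values, and 42.2% did not overlap in either direction. Without Type 1 ACs replicate 1 the Ear1 ratio was 9.72. Epx gave 23 reads in the former and 3 in the latter, and no ratio is given. The macrophage markers summed to 28013 to 41181 in the former and 18934 to 24243 in the latter, and the eosinophil markers to 18974 to 20004 and 16851 to 18363. The experiment, its mice and its library preparation cannot be told apart, so no test was made.

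The members differed in how they varied together. Over the 18 libraries, after subtraction of the mean of the own experiment's ACs from log2(normalized count + 1), Ear2 and Rnase2a had a Pearson r of 0.715 and Prg2 and Ear6 of 0.705, whereas Ear1 and Ear2 had 0.182. These values describe libraries that share groups and ACs, and they carry no test. Among 6907 genes with a mean of at least 50, the most alike to Rnase2a were Ccl24 (eotaxin-2, r = 0.950), Chil3 (a chitinase-like protein, 0.937) and Dab2 (an endocytic adaptor, 0.909). Those most alike to Ear6 were A530064D06Rik (0.939), Abtb2 (0.938) and Il5 (0.935), and Il5 is the gene carried by the transgene. To Ear2 the nearest were Lage3 (0.940), Ubac2 (0.907) and Mrps26 (0.899), and to Prg2 they were Fbl (0.880), Rdh12 (0.786) and Adora2b (0.758).

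The rest of the RNase A superfamily was sparse. Of 22 further genes listed, 16 were in the table, 8 of those had no read in any library, and 3 were tested in each experiment. Rnase2b gave 2 reads in 1 library, and Ear14 was at or below a normalized count of 2.63 throughout. Rnase6, an antimicrobial member of phagocytes, was the most abundant at 632 ± 27.2 (SD, n = 3) with ACs. It fell with E. coli (log2 fold change -0.75, limma, adjusted p = 0.000428) and with IFN-γ (-0.94, adjusted p = 1.6e-05), and its change with both (-0.39) was not called. Rnase4 fell with IFN-γ + E. coli, by -1.56 (limma, adjusted p = 0.00236). None of the 3 tested was called with IL-4 by limma, edgeR or DESeq2, and 0 had an unadjusted p under 0.05. Another list of 5 nuclease genes held the lysosomal ribonucleases Rnaset2a and Rnaset2b, the ribonuclease inhibitor Rnh1 and the DNases Dnase2a and Dnase1l3. None of the 4 tested, which did not include Dnase1l3, was called by limma, edgeR or DESeq2 in the 4 comparisons with ACs, and 0 had an unadjusted p under 0.05.

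Genes for storing and releasing granules were measured beside their contents. Of 24 tested, 1 was called higher and 0 lower with IL-4, 3 and 2 with E. coli, 5 and 2 with IFN-γ, and 6 and 3 with both. Over all genes tested the shares called higher and lower were 0.74% and 0.347%, 5.05% and 5.25%, 11.4% and 9.96%, and 14.7% and 17.2% in the same order. The median log2 fold change of the list was -0.11, 0.13, 0.28 and 0.26, against -0.01, 0.00, 0.00 and -0.05 over all genes tested. Srgn, the proteoglycan core protein that binds cationic granule proteins, rose in all 4 comparisons, by log2 fold changes of 0.78, 0.99, 0.89 and 1.42 (limma, adjusted p = 0.0114, 3.7e-06, 5.1e-06 and 7.1e-09). Sytl1, a Rab27 effector in granule docking, was lower with E. coli (-1.81), IFN-γ (-3.02) and both (-3.93). Stx11, a syntaxin of granule release, was higher by 0.60, 0.67 and 1.65 in those comparisons.

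Genes for the heme of eosinophil peroxidase were called in 0 of 7 cases with IL-4 by limma, edgeR and DESeq2, and 1 had an unadjusted p under 0.05. With E. coli, Alas1, which encodes the first enzyme of heme synthesis, was higher (log2 fold change 1.25, limma, adjusted p = 2.1e-06). With both stimuli Ppox (-1.47) and Urod (-1.30) were lower and Alas1 was higher (0.99). Of 8 other peroxidase and oxidase genes tested, Ptgs2 (cyclooxygenase-2) was called higher in all 4 comparisons, by 1.5 with IL-4, 1.93 with E. coli, 2.86 with IFN-γ and 4.70 with both, and limma and DESeq2 called no gene of that list lower, whereas edgeR called 1 lower with IFN-γ.

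Among 16 transcription factors of eosinophil development tested, 0 were called higher and 1 lower with IL-4, 1 and 2 after E. coli, 1 and 5 after IFN-γ, and 5 and 4 after both. These counts stand beside the shares of 0.74% and 0.347%, 5.05% and 5.25%, 11.4% and 9.96%, and 14.7% and 17.2% over all genes. Cebpa fell with IL-4 (log2 fold change -1.65, limma, adjusted p = 0.0273), E. coli (-1.03) and both stimuli (-1.93). Cebpe, a factor required for granule genes, fell with IFN-γ (-0.74, limma, adjusted p = 0.00412), and its log2 fold change was 0.13 with IL-4, 0.43 with E. coli and -0.36 with both, none of them called. Irf8 rose with IFN-γ (2.56) and with both (1.03), and Gata1 rose with both (0.62). Of the 6 eosinophil markers, 0 were called with IL-4 by limma, edgeR or DESeq2 (0 at an unadjusted p under 0.05), and with IFN-γ 4 were lower, among them Siglecf (-0.99) and Alox15 (-0.79).

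The eosinophils had been selected with anti-Thy1.2 and anti-B220 beads, which remove T and B cells. The study reports high eosinophil purity by flow cytometry, both before culture and after the Siglec-F selection. Markers of other cell types were at lower sums than those of macrophages. The neutrophil markers summed to 911 to 4745 per library, the B cell markers to 97.6 to 1040, the thymocyte markers to 54.1 to 242 and the mast cell and basophil markers to 4.70 to 67.6. The 5 B cell markers summed to 901 to 1040 with ACs and to 97.6 to 317 in the stimulated groups of the Type 1 experiment. Their part in the values of the granule proteins and ribonucleases was not tested.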

How the data were processed

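RNA of 18 libraries was measured by CEL-Seq2. The values the authors deposited are a signal per gene, namely reads on genes divided by a DESeq2 size factor. The submitters' notes name GRCm38, FastQC 0.11.5, Trim Galore, cutadapt 1.10, TopHat2 2.1.0, Bowtie2 2.2.6, HTSeq 0.6.1 and DESeq2 1.26.0, and the study's methods state that uniquely mapped reads were counted. Another alignment is described there too, and which one made the table is not stated, nor is the use of molecular identifiers. Whole reads were recovered for 99.88% to 100.0% of values per library (within 0.02 reads), and reads per library gave the depth. Counting error alone makes values under 3 reads indistinguishable from 0. Of the columns, 0 were left unused.

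R 4.3.3 with limma 3.58.1 (lmFit and eBayes with a trend) was used to fit all comparisons on log2(normalized count + 1), for genes with a mean of at least 10, with Benjamini-Hochberg adjustment over all genes. In all, 8 comparisons were fitted. The Type 1 comparisons used its 12 libraries, the IL-4 comparison its 6, and the difference between responses all 18. ACs libraries were assigned to experiments by the naming in their descriptions. Calls needed an adjusted p under 0.05 and 1.5-fold, the study's threshold. Alternatives included DESeq2 1.42.0 and edgeR 4.0.16, which called 209 and 212 genes with IL-4 from the recovered reads, against 116. On simulated data with 200 genes changed 4-fold, limma recovered 84% with 7 false calls for IL-4, 90.5% with 8 for IFN-γ + E. coli, 81% with 10 for the interaction and 76.5% with 9 for the difference.

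The genes named are the 8 members, for each other list at most the 3 largest called changes per comparison and those a result turns on, and the 3 genes most alike to each member. Values of Rnase2b, Ear14, the genes of the nuclease list, uncalled changes of Cebpe and Rnase6, and smaller called changes of Srgn, Stx11 and Alas1 were added after they were seen. Some results of the list of heme synthesis genes are not reported here. The members and all gene lists were chosen with earlier results of these data known. Sequences were read from RefSeq tables (GRCm38.p6) and GENCODE transcripts by Biopython 1.88 (Python 3.11.15, pandas 2.3.3, numpy 2.4.6), and plots were drawn with matplotlib 3.10.9.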

Additional observations from a re-analysis of the deposited data

Results flagged for a closer look

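The effect of E. coli on Rnase2a was called different with and without IFN-γ, but this call was lost in 8 of 21 alternatives. The log2 difference was -1.61 (limma interaction term, adjusted p = 0.0368), and Rnase2a stood at 93.2 ± 19.6 (SD, n = 3) normalized counts with ACs, 80.8 ± 21.2 after E. coli, 194 ± 33.1 after IFN-γ and 59.8 ± 31.5 after both. The E. coli + ACs libraries overlapped with ACs. All 3 libraries with both stimuli lay below all 3 with IFN-γ + ACs, when 29.6% of genes tested did not overlap in that comparison. The macrophage markers summed to means of 21808, 12178, 35892 and 13351 in the same order, and their part in the difference was not tested.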

How the results depend on the processing

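The alternatives were a pseudocount of 5, other filters, a common upper quartile, edgeR, DESeq2, no fold threshold, the replicate block, all libraries in 1 fit and each replicate left out. With IL-4 the members called higher fell from 3 to 1 with the replicate block (Ear2 adjusted p = 0.0751, Ear6 0.0546) and ranged from 1 to 3 with replicates left out. Replicate numbers did not pair the libraries (mean r between same-numbered ones 0.0095 in the IL-4 and 0.0054 in the Type 1 experiment). With IFN-γ the members called higher ranged from 0 to 1 with replicates left out. With IFN-γ + E. coli, 1 (Ear6) was called higher without the fold threshold, and of lower calls there were 0 at a mean of at least 50, 2 with the common upper quartile and 1 to 2 with replicates left out. The interaction call ranged from 0 to 1 with replicates left out and was lost (0) with all genes of any value above 0. Lower calls ranged from 1 to 4 against E. coli + ACs with replicates left out and were 1 against IFN-γ + ACs at a mean of at least 50. Against IFN-γ + ACs, the Prg2 log2 fold change of 0.06 became -0.0047 with edgeR, -0.0029 with DESeq2, and -0.07 and -0.093 without IFN-γ + ACs replicate 1 or 3 (-0.093 to 0.35 with replicates left out). Epx with IL-4 became -0.29 without IL-4 + ACs replicate 3 and -0.21 without ACs replicate 1 (-0.29 to 0.71), and Ear1 in the difference of responses -0.20 without ACs replicate 1 of the Type 1 experiment (-0.20 to 0.60). The common upper quartile moved the median of all genes to -0.18 with IFN-γ + E. coli, -0.15 against E. coli + ACs and 0.17 in the difference, and split the called genes into 1155 higher and 2200 lower against 1494 and 1746, 769 and 1352 against 995 and 973, and 1268 and 870 against 1007 and 1121. Without Ear6 the members' share of a library was 0.00553% (ACs), 0.0054% (E. coli + ACs), 0.00647% (IFN-γ + ACs), 0.00322% (both), 0.0123% (ACs, IL-4 experiment) and 0.0445% (IL-4 + ACs). All genes called with IL-4 numbered 116, with 47 and 57 without IL-4 + ACs replicate 1 or 2 and 62 and 61 without ACs replicate 1 or 2, against 212 with edgeR, 209 with DESeq2, 208 with all genes above 0, 221 in the fit of all libraries and 74 with the block, and 656 without both shallow libraries, an alternative chosen after the data were seen. For the interaction they numbered 756, and 495 in the fit of all libraries and 400 to 1026 with 1 library left out, lowest without E. coli + ACs replicate 1 and then without ACs replicate 3 (439) and IFN-γ + ACs replicate 2 (486). The cause of these changes was not tested. Depth limits Epx, Prg3, Ear10 and, with both Type 1 stimuli, Ear2.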
